A study of Mus musculus with 12 samples.

Results

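The 8 genes followed here, C1qa, C1qb, C1qc, Apoe, Trem2, Gpnmb, Mrc1 and Fcrls, were chosen as genes of tumour macrophages and were read in every annotated cell class of every library. All 8 were present in the 19369 genes of the Total tables and the 18574 genes of the CD45 tables. The tumours came from 4T1, a cell line of a mouse mammary carcinoma that is used as a model of aggressive breast cancer, and were profiled by single-cell RNA sequencing. There were 6 groups of 1 tumour each: 5 single-cell-derived clones named Clone E, Clone EM1, Clone EM2, Clone EM3 and Clone M, and Parental 4T1, the line they came from. The labels call the clones epithelial, intermediate and mesenchymal without saying which is which. Cells had been cultured and placed in the mammary fat pad of female BALB/c mice of 9 to 11 weeks, the strain the line came from. Each clone is a single isolate of the line, so that what belongs to its state and what belongs to that isolate cannot be told apart. From every tumour 1 library, called Total, was made of all dissociated cells, and another, called CD45, of cells that magnetic beads had enriched for this antigen of white blood cells. The series set tumour cell states along the epithelial-mesenchymal range beside the immune cells of the same tumours, and the 8 genes describe the macrophages among them.

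C1qa, C1qb and C1qc encode the chains of C1q, the recognition part of the first complement component, which in most tissues is made by macrophages rather than by the liver. Apoe encodes apolipoprotein E, a lipid carrier, and Trem2 a receptor for lipids and lipoproteins that signals through the adaptor Tyrobp; both are known from macrophages laden with lipid. Gpnmb encodes a glycoprotein of lysosome-rich macrophages, osteoclasts and pigment cells, and is also made by some carcinoma cells. Mrc1 encodes the mannose receptor CD206. Fcrls encodes an Fc receptor-like scavenger receptor of the mouse, best known as a marker of microglia and other resident macrophages.

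By the GENCODE annotation of the mouse genome build GRCm38 (mm10), C1qb, C1qc and C1qa lie side by side on the minus strand of chromosome 4, between 136880129 and 136898803, a stretch of 18675 bases. Apoe lies on the minus strand of chromosome 7 (19696109 to 19699188) and Trem2 on the plus strand of chromosome 17 (48346401 to 48354147). Gpnmb lies on the plus strand of chromosome 6 (49036546 to 49070929). Mrc1 lies on the plus strand of chromosome 2 (14229392 to 14332057) and holds the microRNA gene Mir511. Fcrls lies on the minus strand of chromosome 3 (87250758 to 87263738). No annotated gene overlaps any of the other 7. C1qb, Trem2 and Gpnmb are shown here as examples, of which Gpnmb went another way than C1qb and Trem2 between tumours and between cell classes. The 250 bases before the RefSeq start of each (build GRCm38.p6, 5′ to 3′ on the gene's strand) are at chr4:136886201-136886450 for C1qb, chr17:48346151-48346400 for Trem2 and chr6:49036268-49036517 for Gpnmb. Capitals mark GAGGAA, the core bound by the macrophage factor PU.1, and CATGTG, an E-box of the kind bound by the MITF and TFE factors, on either strand (TTCCTC and CACATG).
C1qb: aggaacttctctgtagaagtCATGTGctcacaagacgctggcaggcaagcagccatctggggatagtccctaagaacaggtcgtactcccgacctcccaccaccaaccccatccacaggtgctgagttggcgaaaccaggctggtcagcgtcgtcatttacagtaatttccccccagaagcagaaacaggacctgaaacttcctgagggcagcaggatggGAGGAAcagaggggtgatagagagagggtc
Trem2: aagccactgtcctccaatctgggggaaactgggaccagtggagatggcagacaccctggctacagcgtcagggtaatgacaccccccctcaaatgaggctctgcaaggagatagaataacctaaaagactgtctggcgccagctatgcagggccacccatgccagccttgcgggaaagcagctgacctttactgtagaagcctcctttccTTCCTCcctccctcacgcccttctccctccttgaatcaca
Gpnmb: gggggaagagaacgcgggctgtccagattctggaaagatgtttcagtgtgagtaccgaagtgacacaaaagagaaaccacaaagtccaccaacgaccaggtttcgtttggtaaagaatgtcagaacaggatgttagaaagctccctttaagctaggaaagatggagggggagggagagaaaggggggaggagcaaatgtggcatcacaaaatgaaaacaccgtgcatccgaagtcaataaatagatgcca
The RefSeq table held a promoter entry for 7 of the 8 genes. The GAGGAA core stood 30 bases before the start of C1qb and, on the other strand, 40 bases before that of Trem2. CATGTG stood 230 bases before the start of C1qb, and neither motif was found in the window of Gpnmb. Of 32851 windows of this length in the table, 23.3% held the first motif and 12.3% the second, so that a match is common and describes only these letters.

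Expression is given as CPM, the unique molecular identifiers (UMIs, each marking a captured RNA molecule) of a gene per 1000000 UMIs of its cell class, added up within each library. Intervals are exact 95% Poisson intervals and cover counting error only. With 1 tumour per group there is no spread between tumours of a group, and no p-value was computed between tumours. The libraries held 28083101 to 122055131 UMIs in 6709 to 13467 cells, and the macrophage sums 6603901 to 41212346 UMIs in 1237 to 5114 cells. The first 16 bases of the cell barcodes were shared by 12.2% to 19.1% of cells in 14 pairs of libraries and by 0.686% to 1.91% in the other 52 pairs. The libraries of Clones E and EM3 fall in one such set and those of EM1 and EM2 in another, while those of Clone M and of Parental 4T1 each stand alone. Differences of EM1, EM2, M or Parental 4T1 from E are therefore also differences between sets, and tumour and set cannot be told apart there. The macrophage class carried its markers: Adgre1, Csf1r, Fcgr1, Mertk, Cd68 and Lyz2 together had 6169 to 10197 CPM in CD45 macrophages and 5296 to 10424 CPM in Total macrophages. Markers of fibroblasts summed to at most 2.3 CPM and those of tumour cells to at most 6.12 CPM in CD45 macrophages, against 128.9 and 236.4 CPM in Total macrophages.

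Across the cell classes of the CD45 libraries, the C1q genes, Apoe, Trem2, Mrc1 and Fcrls were genes of macrophages and of the class that the authors named other myeloid cells. Macrophages held 82.7% to 90.1% of all C1qa UMIs of a library, 86.8% to 92.8% of those of Apoe and 83.7% to 90.9% of those of Trem2. C1qa had 3572 to 6494 CPM in macrophages and 4162 to 6568 CPM in other myeloid cells. For Fcrls, other myeloid cells reached 98.7% to 210.6% of the macrophage level of their tumour, with a median of 130.2%, and for Apoe 59.4% to 89.2%. Fcrls in dendritic cells had a median of 39.8% of the macrophage level, but 101.0% in Clone E, where both classes were low. The macrophage markers summed to 5315 to 9088 CPM in that class, close to the range of the macrophages themselves. Because the classes were drawn by the authors from the same counts, levels of classes are a description and were not tested.

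T cells, which are not known to make C1q, give the background against which the other classes were read; free RNA and doublets that went unmarked were not tested as its source. C1qa had 286.0 to 706.1 CPM in T cells of the CD45 libraries and 97.3 to 517.2 CPM in T and NK cells of the Total libraries. As a share of the macrophage level in the same library, the medians over tumours in CD45 T cells were 8.07% for C1qa, 6.87% for C1qb, 8.68% for C1qc, 5.65% for Apoe, 7.79% for Trem2, 6.09% for Mrc1 and 6.94% for Fcrls. These 7 genes thus stood at a like share. Granulocytes were near that level too, with medians over the same genes of 8.16% for Apoe to 12.2% for Trem2. Gpnmb had a median of 8.68% in T cells, at 0.445 to 5.39 CPM, but of 39.6% in granulocytes. C1qa made up 47.6% to 50.5% of the UMIs of the C1q genes in CD45 macrophages, 50.5% to 55.4% in T cells and 48.8% to 55.1% in granulocytes. No expression in lymphocytes or granulocytes is read from these levels.

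**Figure D1:**
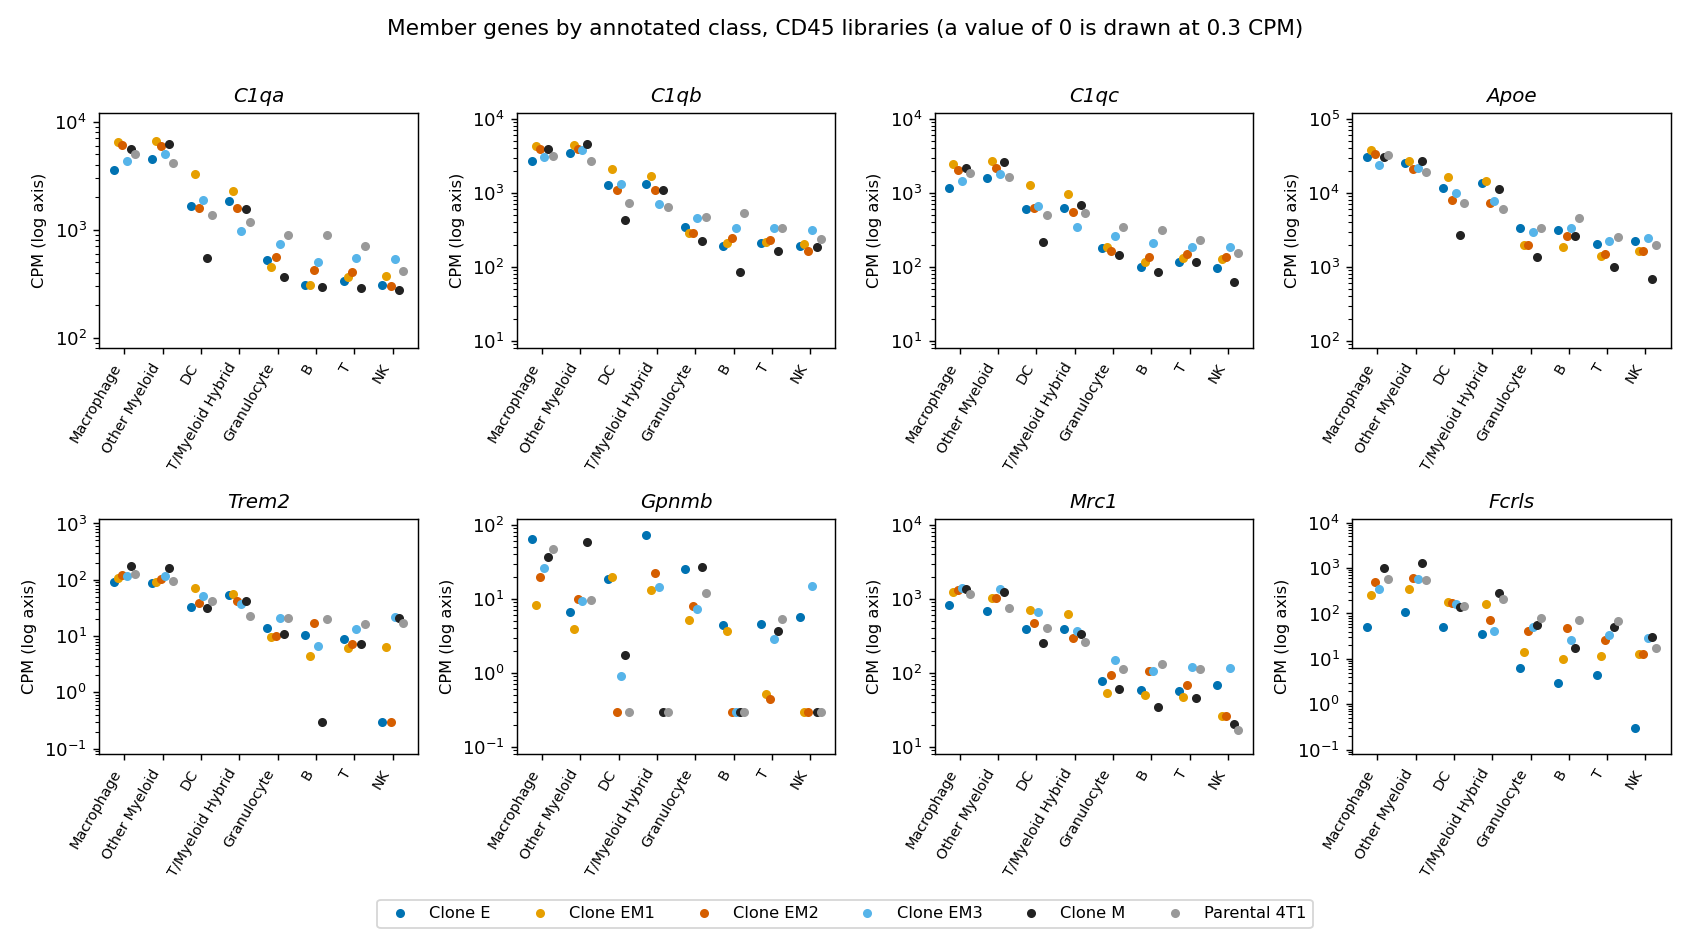
Level of each of the 8 genes (CPM, log axis) in the 8 annotated classes of the CD45 libraries; each point is 1 tumour. For all but Gpnmb most points fall from macrophages and other myeloid cells over dendritic and hybrid cells to a low level shared by granulocytes, B, T and NK cells, where C1qa lies between 278.9 and 896.2 CPM. In Clone E, Fcrls does not fall from macrophages (50.2 CPM) to dendritic cells (50.7 CPM).

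Dendritic cells (DC) differed between the library types. In the CD45 libraries C1qa was lowest in DC of Clone M, at 544.9 CPM (485.8 to 609.2), followed by 1365 in Parental 4T1, 1598 in EM2, 1643 in E, 1892 in EM3 and 3251 in EM1. In the Total libraries the class of the same name had 103.5, 204.1, 227.0, 125.3, 474.1 and 59.6 CPM in that order of tumours. The sets of values do not overlap. Total DC stood at 0.986% to 8.14% of the macrophage level of their library, and T and NK cells at 1.61% to 8.88%. The macrophage markers moved with this difference: they summed to 1688 to 4675 CPM in CD45 DC and to 536.5 to 1204 CPM in Total DC, while the DC markers Flt3, Xcr1, Clec9a, Cd209a, Ccr7 and Zbtb46 summed to 2230 to 4120 and 3369 to 5858 CPM. Their part in the difference was not tested, and the class schemes of the 2 library types differ. Cells that the authors called T/myeloid hybrids had intermediate levels, with medians of 27.2% of the macrophage level for C1qa and 34.2% for Apoe.

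Within macrophages, Clone E had the lowest level of the C1q genes, Trem2, Mrc1 and Fcrls in both of its libraries by CPM, although under scaling by trimmed means (TMM) its CD45 level of C1qb was matched by Parental 4T1, with a log2 ratio of 0. The summed macrophage markers were also lowest in Clone E. CD45 macrophages of E had 6169 CPM of them against 8554 to 10197, and Total macrophages 5296 against 8152 to 10424. Lyz2 made up most of the sum, with 4105 and 3277 CPM in E. It was lowest in E, as were Adgre1, Csf1r, Mertk and Cd68. Fcgr1 was instead highest in E, with 393.5 CPM against 255.4 to 363.7 in CD45 and 366.4 against 226.6 to 344.5 in Total macrophages. The part of these markers in the low levels of Clone E was not tested. C1qa in CD45 macrophages had 3572 CPM in Clone E, 4293 in EM3, 5010 in Parental 4T1, 5555 in M, 6061 in EM2 and 6494 in EM1. In Total macrophages it had 3146 CPM in E, 5187 in Parental 4T1, 5755 in M, 5821 in EM3, 6038 in EM1 and 6215 in EM2. Clone E was lowest in both library types, while the order of the others changed with the library type. The Total library of EM3 had 1.36 times the C1qa level of its CD45 library, the widest gap between libraries of 1 tumour. For C1qb and C1qc that gap of EM3 was 1.2 and 1.28 times. EM3 over E, within 1 barcode set, was 1.2-fold for C1qa, 1.14-fold for C1qb and 1.26-fold for C1qc in CD45 macrophages. Those ratios were smaller than the gaps between the libraries of EM3. In Total macrophages EM3 over E was 1.85-fold, 1.71-fold and 1.96-fold. Of the 15 pairs of tumours, 12 had the same order of C1qa in both library types, 13 of C1qb and 14 of C1qc. No pair that changed order for these 3 genes included E.

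C1qb and C1qc, the other chains, followed C1qa. C1qb in CD45 macrophages had 2724 CPM in Clone E, 3095 in EM3, 3174 in Parental 4T1, 3862 in EM2, 3949 in M and 4247 in EM1. C1qc stood at 1157 CPM (1146 to 1168) in E, 1458 in EM3, 1863 in Parental 4T1, 2071 in EM2, 2169 in M and 2439 (2416 to 2461) in EM1. Clone E was again lowest and EM1 highest in the CD45 libraries. In Total macrophages E was also lowest for C1qc, at 953.0 CPM, but M was highest, at 2160. EM1 over E was 1.82-fold (interval 1.80 to 1.83) for C1qa, 1.56-fold (1.54 to 1.57) for C1qb and 2.11-fold (2.08 to 2.14) for C1qc in CD45 macrophages. In Total macrophages the ratios were 1.92, 1.94 and 2.23. Under TMM scaling the C1q genes stayed above E in the CD45 libraries of all other tumours, except C1qb of Parental 4T1. Among cells thinned to 1000 UMIs, C1qa was seen in 59.6% (58.3 to 61.0, Clopper-Pearson) of CD45 macrophages of E and in 85.7% (84.5 to 86.9) of those of EM1. The unthinned shares were 78.2% and 90.1%, at median depths of 6014 and 5455.5 UMIs per macrophage. T cells of the CD45 libraries, with median depths of 979.0 to 1719 UMIs, showed C1qa in 24.0% to 43.8% of thinned cells.

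Apoe varied least in Total macrophages, where the highest tumour had 1.31 times the level of the lowest. CD45 macrophages of EM3 had 24083 CPM, those of Clone E 30284, M 30891, Parental 4T1 32520, EM2 33166 and EM1 38345. In Total macrophages the same tumours had 29820, 25778, 30567, 27046, 33768 and 33525 CPM. No tumour stood apart in both library types, and EM3 was lowest in the CD45 but not in the Total libraries. M over E was 1.02-fold in CD45 and 1.19-fold in Total macrophages, and under TMM scaling the CD45 log2 ratio turned to −0.27, as that of Parental 4T1 turned to −0.12. By the span between the lowest and highest tumour, Apoe ranked 2822 of 4596 genes in Total macrophages (log2 span 0.39, median gene 0.46) but 999 of 4355 in CD45 macrophages (0.67, median gene 0.42), so that its place against the median gene changed with the library type.

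Trem2, the receptor, was highest in Clone M. CD45 macrophages of Clone E had 91.2 CPM (88.0 to 94.4), followed by 108.5 in EM1, 115.4 in EM3, 123.8 in EM2, 124.5 in Parental 4T1 and 176.2 (170.4 to 182.2) in M. In Total macrophages the values were 74.8, 100.1, 103.2, 116.7, 115.0 and 151.6 CPM in that order of tumours. E and M stood at the ends in both library types, and EM2 and Parental 4T1 did not differ beyond counting error in either. M over E was 1.93-fold (1.84 to 2.03) and 2.03-fold (1.91 to 2.15), and on the log2(CPM + 10) scale used for calls, 0.88 and 0.93. Its adaptor Tyrobp varied less, with 2717 to 3089 CPM in CD45 macrophages.

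Mrc1, the mannose receptor, was lowest in E and highest in EM3 in both library types, and all 15 pairs of tumours kept their order. CD45 macrophages had 822.5 CPM in E, 1178 in Parental 4T1, 1247 in EM1, 1323 in EM2, 1344 in M and 1401 in EM3. Total macrophages had 812.6, 1149, 1211, 1385, 1440 and 1708 CPM in the same order. E and EM3, which share barcodes of 1 set, thus differed 1.70-fold (1.68 to 1.73) and 2.10-fold (2.07 to 2.14). Between the other neighbours in this order the ratios were smaller than the spread of 1.22-fold between both libraries of EM3, except between E and Parental 4T1.

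Fcrls, the scavenger receptor, differed most of the 8 genes. CD45 macrophages of Clone E had 50.2 CPM (47.8 to 52.6), followed by 261.5 (254.2 to 269.0) in EM1, 348.6 (342.9 to 354.3) in EM3, 503.5 (494.7 to 512.5) in EM2, 565.1 (555.2 to 575.1) in Parental 4T1 and 991.5 (977.7 to 1005) in M. Total macrophages had 44.0, 270.4, 483.8, 572.6, 639.4 and 960.9 CPM in the same order, and all 15 pairs of tumours kept their order. Clone E lay far below every other tumour and M above all. M over E was 19.8-fold (18.8 to 20.8) in CD45 and 21.8-fold (20.4 to 23.4) in Total macrophages. EM3 over E, within 1 barcode set, was 6.95-fold (6.61 to 7.30) and 11.0-fold (10.3 to 11.8). By this span Fcrls ranked 4 of 4355 genes with at least 50 CPM in CD45 macrophages and 5 of 4596 in Total macrophages, where the median gene spanned 0.42 and 0.46 on the log2 scale.

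The share of macrophages with a Fcrls UMI ran in the same order as its level. In thinned CD45 macrophages, 3.36% (2.88 to 3.89) carried it in E, 14.9% in EM1, 16.6% in EM3, 22.6% in EM2, 26.0% in Parental 4T1 and 39.2% (37.3 to 41.1) in M. Unthinned, 10.2% did in E and 65.2% in M, at median depths of 6014 and 7678 UMIs. T cells of the same libraries showed 0.484% in E and 5.29% in M when thinned, at median depths of 1712.5 and 1394 UMIs. In both tumours the macrophage share was above that background. The variance of thinned Fcrls counts over cells was 1.77 to 2.31 times their mean in CD45 macrophages, against 1.01 to 1.09 times for Trem2. Fcrls UMIs were thus spread unevenly over macrophages. Trem2 was seen in only 8.09% to 14.6% of thinned CD45 macrophages. At such sparse counts a ratio near 1 cannot show whether its expression was even.

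**Figure D2:**
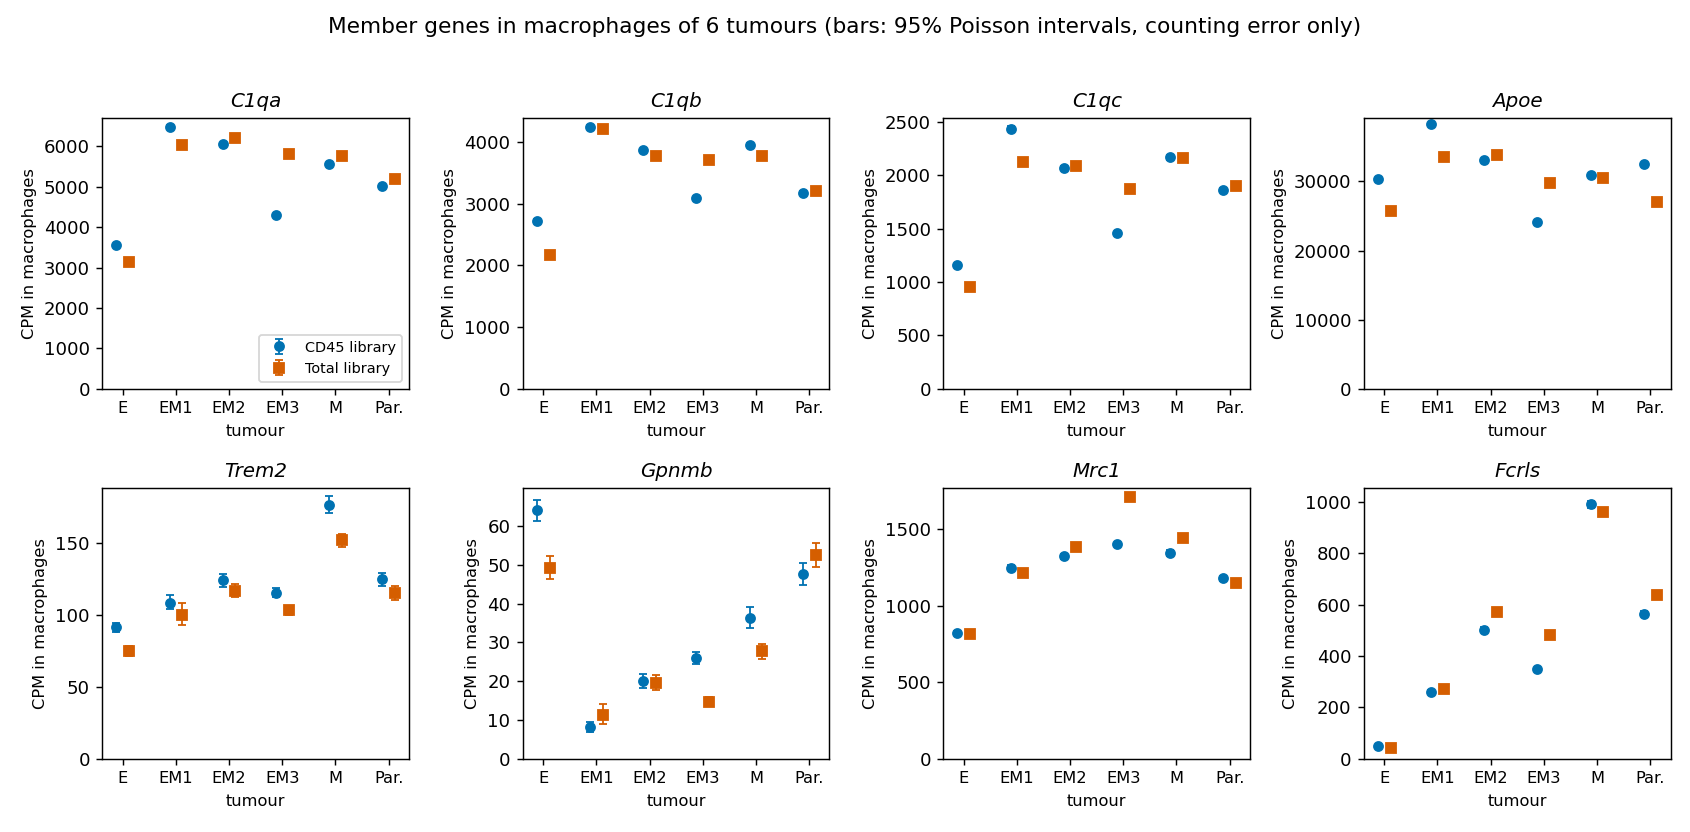
Level of each gene (CPM, linear axes from 0) in macrophages of the 6 tumours, with CD45 libraries as circles and Total libraries as squares; bars are 95% Poisson intervals and are often smaller than the symbols. By CPM, Clone E is lowest for the C1q genes, Trem2, Mrc1 and Fcrls in both library types (under TMM scaling Parental 4T1 matched it for CD45 C1qb), and Fcrls runs from 50.2 to 991.5 CPM in the CD45 libraries.

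Counted over all 8 genes, 0 to 3 members per comparison of tumours reached 2-fold, the size used as a call on the log2(CPM + 10) scale. For EM1 over E, 3 members were called in each library type (C1qc and Fcrls higher, Gpnmb lower; Gpnmb stayed under 50 CPM in both Total sums), against 4.32% of all genes with at least 50 CPM in CD45 and 4.35% in Total macrophages. Under TMM scaling the CD45 log2 ratio of C1qc was 0.93, short of 2-fold, which leaves 2 members called there. For EM2 over E, 2 were called in each, against 2.67% and 3.62%; Fcrls was among them in both, with Gpnmb lower in CD45 and C1qc higher in Total macrophages. For EM3 over E, Fcrls was higher and Gpnmb lower in both, and Mrc1 was higher in Total macrophages, against 1.28% and 3.0%, where Gpnmb again stayed under 50 CPM in both Total sums and so is not among the genes of that share. For M over E, Fcrls was called in CD45 macrophages and Fcrls and C1qc in Total macrophages, against 6.72% and 7.19%. For Parental 4T1 over E, Fcrls alone was called in both, against 3.26% and 5.33%. These 5 comparisons share the libraries of Clone E. Between EM1 and EM2, which share a barcode set, no member was called in CD45 macrophages and Fcrls was lower in EM1 in Total macrophages (log2 ratio −1.05), against 0.49% and 0.391% of genes. In CD45 macrophages that log2 ratio was −0.92. The median gene was 0.172 higher in M than in E on the log2 scale, and TMM scaling shifted CD45 levels of M over E by −0.30. Fcrls was then at 3.78.

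Other genes of scavenging, resident-like macrophages were low in Clone E as well. Of the 20 genes of that list, 12 were measured in CD45 macrophages for M over E, and 9 of them were at least 2-fold higher and none lower, with a median log2 ratio of 2.05 against 0.17 over all genes, of which 6.72% were called. For EM3 over E, 6 of 12 were higher and none lower (median 1.00 against 0.05 over all genes, 1.28% of which were called). Between EM1 and EM2 none of 12 was called, where 0.49% of all genes were. Folr2, a folate receptor of resident macrophages, had 29.1 CPM in E, 108.7 in EM1, 131.5 in EM3, 170.6 in EM2, 229.0 in Parental 4T1 and 317.3 in M, the order of Fcrls. Cbr2, a carbonyl reductase, ran from 17.4 CPM in E to 168.1 in M. Gas6, a ligand of the receptors Axl and Mertk, had 52.2 and 334.1 CPM, and Stab1, a scavenger receptor, 94.1 and 503.1. Cd163, the haemoglobin scavenger receptor, had 26.1 CPM in E, 87.2 in EM3 and 164.4 in M. The list was chosen with earlier results of these data known.

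Part of a list of monocyte genes and genes of the Arg1 side of macrophages ran the other way. It held Ly6c2, Ccr2, Plac8, Chil3 and Vcan of monocytes, with Arg1, Thbs1, Vegfa, Hilpda, Nos2, Cxcl9 and Spp1. Of these 12 genes, 11 were measured in CD45 macrophages for M over E. Of them, 5 were at least 2-fold lower (Chil3, Ly6c2, Cxcl9, Plac8 and Arg1) and none higher. The median was −0.75 against 0.17 over all genes, 6.72% of which were called. For EM3 over E, 3 of 11 were lower and none higher, with a median of −0.09 against 0.05 and 1.28% of all genes called. For EM1 over E, 6 of 11 were lower and 1 higher, where 4.32% of all genes were called. For EM2 over E, 3 of 11 were lower and 1 higher, where 2.67% were. The higher gene was Cxcl9 in both, with 548.4 CPM in EM1 and 483.2 in EM2 against 179.4 in E. In Total macrophages the median was −1.07 against 0.17 for M over E, with 7 of 12 lower, and −0.53 against 0.03 for EM3 over E, with 4 of 12 lower, where 7.19% and 3.0% of all genes were called. Ly6c2, a surface marker of inflammatory monocytes, stood at 170.2 CPM in E against 20.1 to 72.3 in the other tumours. Chil3, a chitinase-like protein of monocytes, had 214.5 CPM in E and 5.88 to 44.9 in the others, and Plac8 had 409.1 and 123.5 to 258.9. Clone E was the highest tumour for 5 of the 12 listed genes in CD45 macrophages, these 3 with Vegfa and Nos2, and for 8 in Total macrophages, where Ccr2, Vcan and Thbs1 joined them. Ccr2, a chemokine receptor, had 139.0 CPM in E and 154.3 in EM3 in the CD45 libraries, but 185.4 in E against at most 121.5 in the Total libraries. Vcan, versican, had 74.6 in E and 103.5 in M in the CD45 and 86.4 and 82.5 in the Total libraries. Arg1, arginase of suppressive macrophages, did not separate E: it had 3845 CPM in E and 4022 in EM3, against 1301 to 2562 in the others. Granulocyte markers in CD45 macrophages summed to 1201 CPM in E, 1700 in EM3, 1146 in M and 639.2 to 683.8 in the others. This order was not that of Fcrls, and the part of granulocyte RNA in the differences was not tested. More monocytes within the macrophage class of E and other expression in the same cells cannot be told apart here.

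**Figure D3:**
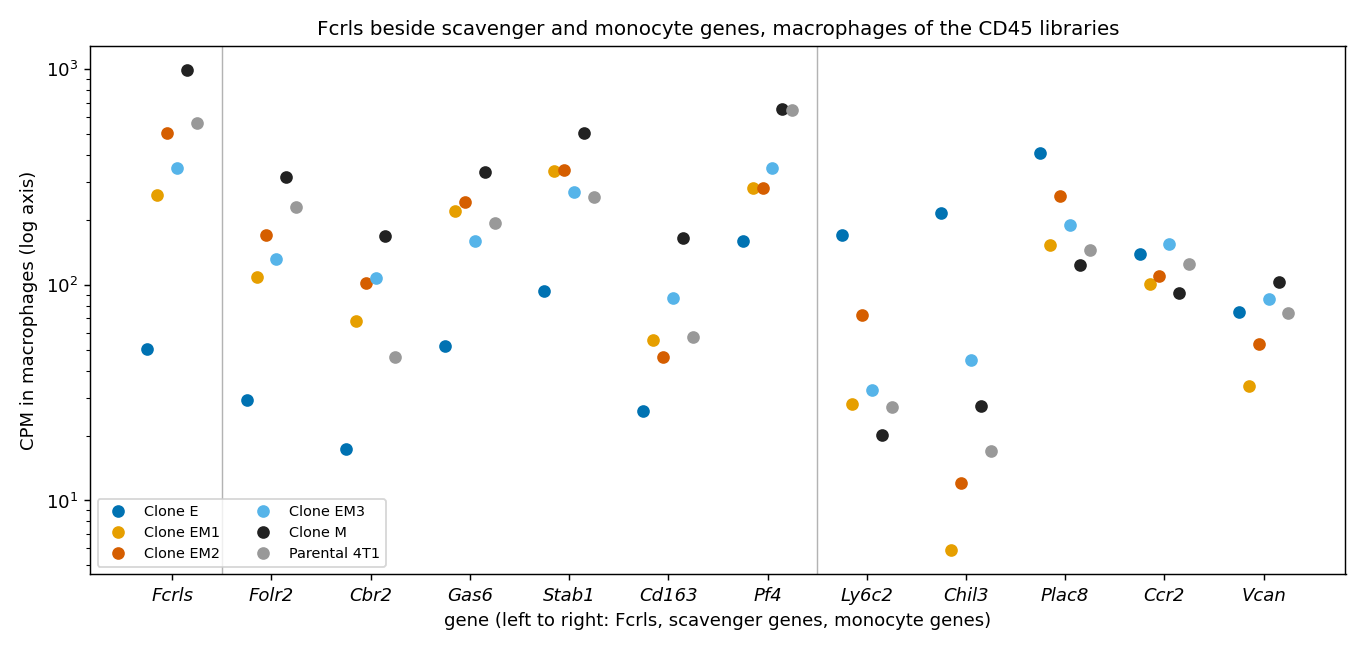
Level of Fcrls, 6 scavenger genes and 5 monocyte genes (CPM, log axis) in macrophages of the CD45 libraries; each point is 1 tumour. Clone E is the lowest of 6 for Fcrls and the 6 scavenger genes shown, with 29.1 CPM of Folr2, and the highest for Ly6c2, Chil3 and Plac8, but not for Ccr2 (154.3 CPM in EM3) or Vcan (103.5 CPM in M).

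The complement genes beyond C1q did not rise together. Of the 15 listed, 11 were measured, with a median log2 ratio of M over E of 0.12 in CD45 macrophages against 0.17 over all genes; 2 were at least 2-fold higher and 3 lower, where 6.72% of all genes were called. In Total macrophages none was higher and 3 were lower, against 7.19% of all genes. C3, the central component, had 619.3 CPM in CD45 macrophages of Clone E against 145.4 in M, 157.3 in Parental 4T1 and up to 368.0 in the other clones. Cfb, factor B of the alternative pathway, fell from 484.0 CPM in E to 152.4 in M, and C4b from 364.3 to 117.7. Clone E, lowest for C1q, was thus highest for C3, Cfb and C4b in the CD45 libraries. Itgam, a chain of complement receptor 3, ran from 356.5 CPM in E to 781.1 in M. In Total macrophages Itgam had 421.8 and 793.0 CPM and was not called.

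Genes of Trem2 signalling and lipid handling also stayed near the average gene. Of the 29 listed, 23 were measured for M over E, where 1 was higher and none lower (median 0.34 against 0.17), near the 6.72% of all genes called. That gene was Ms4a7, a membrane protein of macrophages, with 106.4 CPM in E, 185.4 in EM3, 275.7 in Parental 4T1, 379.5 in EM1, 427.8 in M and 471.9 in EM2. Spp1, osteopontin, had 2927 CPM in E, 799.3 in EM1 and 5084 in Parental 4T1. Lipa, the lysosomal lipase, stood at 195.6 CPM in E against 389.9 in M. Of the genes of lysosomes and the MITF and TFE factors, none of 9 measured was called for M over E in CD45 macrophages; at 6.72% of all genes called, a count of 0 among 9 says nothing particular about them. Of 10 genes known from microglia beside Fcrls, 8 were in the tables and 2 reached 50 CPM for M over E in CD45 macrophages. Of these 2, Tgfbr1, a receptor of TGF-beta, was called higher, with 53.2 CPM in E and 131.4 in M. Below that level, P2ry12 stood at 13.3 CPM in E against 45.7 in M, Tmem119 at 22.3 against 23.0, and Siglech at most 1.52 CPM in CD45 macrophages of any tumour.

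Gpnmb did not behave like the other 7 genes. CD45 macrophages of Clone E had the most, 64.0 CPM (61.3 to 66.7), followed by 47.5 in Parental 4T1, 36.4 in M, 25.9 in EM3, 18.3 to 21.9 (the interval) in EM2 and 8.20 (6.94 to 9.61) in EM1. In Total macrophages it had 49.1 CPM in E, 52.4 in Parental 4T1, 27.7 in M, 14.7 in EM3, 19.6 in EM2 and 11.4 in EM1. EM1 was lowest in both, and E and Parental 4T1 were the 2 highest in both. EM1 over E was 0.128-fold (0.108 to 0.151) in CD45 and 0.231-fold (0.180 to 0.292) in Total macrophages. Its UMIs lay in few macrophages: 9.07% of CD45 macrophages of E carried any (4.36% after thinning), and the cell with the most held 64 UMIs. In the other CD45 libraries 1.9% to 7.24% carried any, and the variance of thinned Gpnmb counts over cells was 2.27 to 3.92 times their mean in the 6 CD45 libraries. Among 5105 genes over 43 class sums, the gene whose log2 level ran most like that of Gpnmb was Ptpre, a phosphatase, at r = 0.755 across sums that share libraries.

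In tumour cells the order of the tumours was another. Tumour cells of Clone E had 2.66 CPM of Gpnmb (1.45 to 4.46), followed by 3.37 in EM2, 7.02 in EM3, 11.2 in Parental 4T1, 14.7 in EM1 and 134.0 (131.3 to 136.9) in M. Clone M lay above every other tumour, 50.5-fold (30.1 to 92.3) over E, where 14 UMIs were counted. With all deposited cells, doublets included, the log2(CPM + 10) difference of macrophages over tumour cells in E was 1.54 in place of 2.22. In M it stayed at −1.93. The sizes of the ratios to tumour cells of E thus depend on the doublet limit, and they are given only with doublets left out. Of tumour cells of M, 65.6% carried a Gpnmb UMI, at a median depth of 13203.5 UMIs, against 1.40% to 9.56% in the other tumours. After thinning to 1000 UMIs the share was 12.6% (11.7 to 13.6) in M and 0.260% to 1.65% in the others, while T and NK cells of M had 1.75% at a median depth of 1779 UMIs. The variance of thinned Gpnmb counts was 1.26 times their mean in tumour cells of M and 0.999 to 1.2 times in the others, where UMIs were few, against 1.53 to 2.9 times in macrophages of the Total libraries. Tumour cells of M with no UMI of Ptprc, Lyz2 or the C1q genes had 140.6 CPM (134.7 to 146.7) over 1145 cells. C1qa in tumour cells of M stood at 0.611% of its macrophage level. At that share, RNA of macrophages would give tumour cells of M 0.169 CPM of Gpnmb. In Clone E, where C1qa stood at 3.44%, it would give 1.69 of the 2.66 CPM measured, so that the ratios to tumour cells of E rest on a level near that background. In E the tumour cells with no UMI of those genes held 3 Gpnmb UMIs, or 3.19 CPM (0.658 to 9.32).

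Over the 6 tumours, the difference in Gpnmb between macrophages and tumour cells was smaller than its spread between tumours. The mean difference of log2(CPM + 10), macrophages minus tumour cells, was 0.55 ± 1.48 (SD, n = 6 tumours), with macrophages higher in 4 of 6 (exact two-sided sign-flip permutation p = 0.4062; the smallest possible is 0.03125). Macrophages had 18.5 times (11.0 to 34.0) the level of tumour cells in Clone E, 5.82 times in EM2, 4.68 times in Parental 4T1 and 2.10 times in EM3. The value of E depended on the doublets left out. With all deposited cells its log2 difference was 1.54 in place of 2.22, while the other tumours stayed near theirs. In M the tumour cells had 4.84 times (4.49 to 5.21) the level of macrophages, and in EM1 1.29 times (1.01 to 1.68). Krt8, a marker of tumour cells, stood in macrophages of M at 2.49% of its tumour-cell level. At that share, RNA of tumour cells would give them 3.34 of the 27.7 CPM of Gpnmb. After thinning to 1000 UMIs, Gpnmb was seen in 2.67% of macrophages of M, 1.75% of T and NK cells and 3.22% of granulocytes. Ratios to Total macrophages of M thus rest on a level near that of those classes. In the CD45 library of M the thinned shares were 2.7% of macrophages, 0.567% of T cells and 0.753% of granulocytes. Without M the mean was 1.05 ± 0.93 (SD, n = 5; exact permutation p = 0.125, where 0.0625 is the smallest possible), without Clone E 0.22 ± 1.38 (exact permutation p = 0.8125) and without Parental 4T1 0.35 ± 1.56 (exact permutation p = 0.625).

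**Figure D4:**
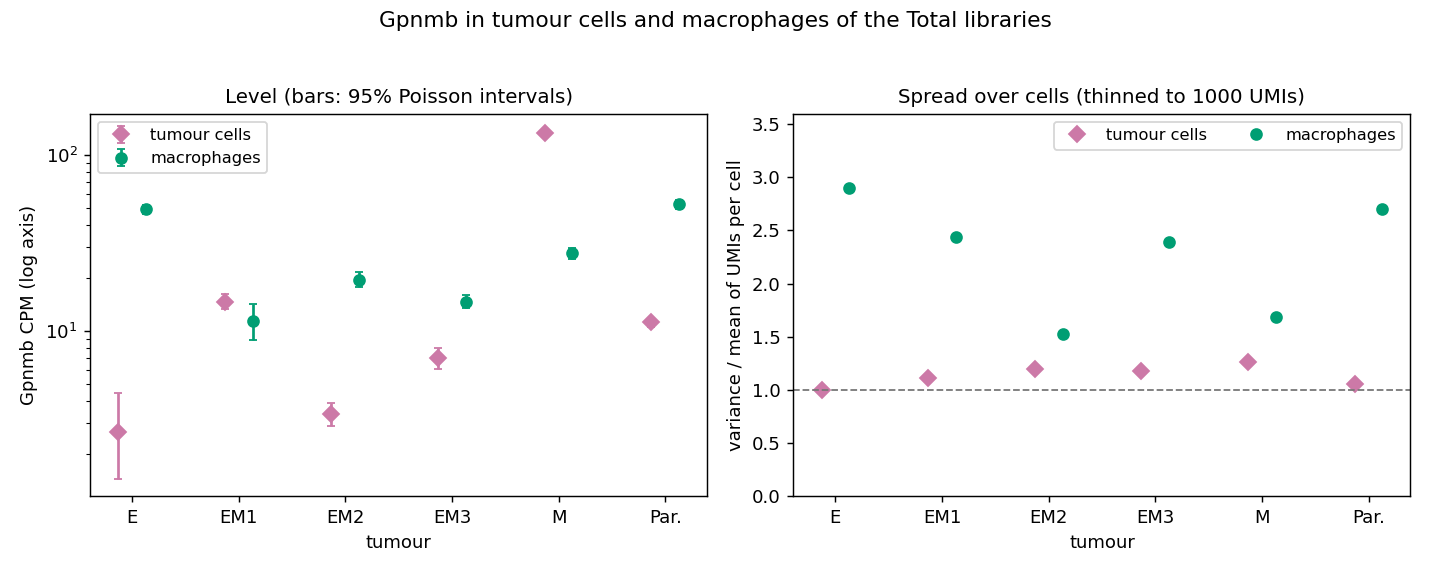
Left, level of Gpnmb (CPM, log axis) in tumour cells (diamonds) and macrophages (circles) of the Total libraries, with 95% Poisson intervals; right, variance over mean of Gpnmb counts per cell after thinning to 1000 UMIs, where the dashed line at 1 is random counting. In Clone M the tumour cells reach 134.0 CPM at a ratio of 1.26, and macrophages of the 6 tumours have ratios of 1.53 to 2.9.

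Other classes carried Gpnmb in some tumours. Fibroblasts of the Total libraries had 20.1 to 54.4 CPM, with 38 UMIs in E and 116 in M, and exceeded the tumour cells of their library in all tumours but M. Granulocytes of the Total libraries had 37.4 CPM (32.6 to 42.7) in M, 18.5 (14.3 to 23.6) in E, 17.5 in Parental 4T1 on 15 UMIs, and 1.83 to 4.79 in the EM clones on 1 to 10 UMIs. In the CD45 libraries they had 26.7 CPM in M, within the interval of E (25.2, 20.1 to 31.1), and 5.17 to 11.9 in the others. In the Total library of M, T and NK cells had 16.7 CPM (11.7 to 23.0), while in the other Total libraries they had 0.496 to 5.79. B cells of M rested on 5 UMIs. In the CD45 library of M, T cells had 3.69 CPM and other myeloid cells 59.4 (48.1 to 72.5). The osteoclast markers Ctsk, Acp5, Ocstamp and Dcstamp summed to 334.0 to 7235 CPM in other myeloid cells of the CD45 libraries, against 231.9 to 502.2 in macrophages. Whether RNA freed from tumour cells gave the values of lymphocytes, granulocytes and macrophages of M was not tested.

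The genes most like the C1q genes across 43 class sums of the CD45 libraries were Lgmn (Pearson r = 0.983 with the mean log2 level of C1qa, C1qb and C1qc), Gatm (0.981), Ctsc (0.980), Mmp14 (0.977) and Csf1r (0.974). The sums share libraries and depth, so the correlations describe the classes and carry no p-value. Ctsc, a lysosomal protease, was also most like Apoe (0.982), Asah1, acid ceramidase, most like Trem2 (0.975) and Ms4a6d most like Mrc1 (0.980). Folr2 was most like Fcrls (0.956). Among single macrophages thinned to 1000 UMIs, C1qa and C1qb correlated at a median r of 0.652 over the 6 CD45 libraries (0.550 to 0.687) and C1qa and Apoe at 0.524 (0.425 to 0.608). Sparse genes gave low values that are no finding, such as 0.087 for C1qa and Trem2.

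The same tumours gave macrophages in both kinds of library, which allowed a test with tumours as replicates of the library type. The class schemes differ, and only the CD45 libraries have a class of other myeloid cells. Library type and the way the class was drawn can therefore not be told apart in this test. The osteoclast marker Ctsk had 303.8 CPM in Total against 8.13 in CD45 macrophages of EM2, but 9.98 against 15.4 in M. By edgeR's quasi-likelihood test with the tumour as a block, 43.5% of 15178 genes differed between Total and CD45 macrophages at an adjusted p under 0.05. Trem2 was lower in Total macrophages (log2 ratio −0.35 ± 0.0597 SE, adjusted p = 0.000361), as were Gpnmb (−0.43 ± 0.116, 0.00836), Apoe (−0.25 ± 0.0872, 0.0317) and C1qb (−0.22 ± 0.0804, 0.0419) by the same edgeR test. C1qc (−0.20, adjusted p = 0.0584), C1qa (−0.14, 0.169), Mrc1 (−0.13, 0.122) and Fcrls (−0.07, 0.483) did not pass it. The 4 members that passed are 4 of 8, near the share over all genes. These ratios are on the TMM scale. By CPM, C1qb was lower in the Total library of 4 of 6 tumours (0.796 to 1.2 times the CD45 level), with means of 3473 and 3508 CPM, and Apoe and Gpnmb were also lower in 4 of 6. The means of C1qa (5361 against 5164 CPM), Mrc1 (1284 against 1219) and Fcrls (495.2 against 453.4) were higher in Total macrophages by CPM, so that their direction depended on the scaling. In the edgeR test C1qb lost its call without Clone E (adjusted p = 0.0502), without EM2 (0.0545) or without Parental 4T1 (0.0581), and Apoe without E (0.0549) or without Parental 4T1 (0.0676). Without EM3, C1qa (0.033) and C1qc (0.0112) passed it. Trem2 was lower in the Total library of all 6 tumours, at 0.821 to 0.943 times the CD45 level.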

How the data were processed

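Dissociated tumours and bead-enriched CD45 cells of 6 tumours were profiled in 12 libraries. The authors deposited raw UMI counts per gene and cell, cell classes of their own, and the percent of mitochondrial UMIs per cell, per the file headers; that percent set no filter here. Cell Ranger and mm10 are named, per the submitters' processing notes, and the version, the cell filter and the way classes were assigned are not given in the sources used here. The labels' protocols name both a fixed-RNA preparation and a 3′ reagent kit, and which chemistry made the counts is not settled.

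Of 115612 cells, 1907 (1.65%) were left out as doublets by a simulated-doublet score above 0.315, a limit set after the score distributions were seen; 0.869% to 2.32% were left out per library. The remaining counts were summed by class and scaled to CPM, with a pseudocount of 10 CPM on the log2 scale and a 2-fold difference as a call; the share of all genes called counts those with at least 50 CPM in either sum, and members were counted at any level. Shares of cells were taken after thinning to 1000 UMIs, and shallower cells were left out. The same tumour gave both libraries, so the tumour paired the 12 macrophage sums in edgeR 4.0.16 (R 4.3.3, TMM, filterByExpr, Benjamini-Hochberg at 0.05). On simulated counts for that comparison (14071 genes, 188 changed) the test recovered 88.8% of changed genes, and 4.57% of its calls were false. Every simulated gene had the same dispersion and every changed gene a 2-fold change. Those rates thus do not carry over to the data, where 43.5% of genes were called. DESeq2 1.42.0 served as an alternative, beside other pseudocounts, scalings, filters, cell sets and tumours left out. Python 3.11.15 with scipy 1.17.1 gave intervals and the exact permutation test, in which 6 pairs cannot go below 0.03125.

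All 8 genes are named, with the 5 genes most alike to C1q, the gene most alike to each member, and genes of the lists. The members and lists were chosen with earlier results of these data known. Single genes singled out within the lists were chosen after their values were seen. The spread in the edgeR test is that of the Total over CD45 ratio from tumour to tumour among these 6, as the block takes out the differences between tumours.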

Additional observations from a re-analysis of the deposited data

Results flagged for a closer look

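With doublets left out, Gpnmb moved in opposite directions over Clone E in tumour cells and in macrophages of the Total libraries of 3 clones. In Clone EM1 it was 5.53-fold (3.26 to 10.2) in tumour cells and 0.231-fold (0.18 to 0.292) in macrophages. In Clone EM3 it was 2.64-fold (1.54 to 4.92) in tumour cells and 0.3-fold (0.27 to 0.333) in macrophages. In Clone M it was 50.5-fold (30.1 to 92.3) in tumour cells and 0.564-fold (0.513 to 0.62) in macrophages. After thinning to 1000 UMIs, these macrophages of M carried Gpnmb in 2.67% of cells, near the 1.75% of T and NK cells and 3.22% of granulocytes there. In the CD45 library of M the shares were 2.7% of macrophages, 0.567% of T cells and 0.753% of granulocytes. There M over E was 0.569-fold (0.522 to 0.619) in macrophages. All these ratios share the libraries of Clone E, whose tumour cells held 14 Gpnmb UMIs at 2.66 CPM, of which macrophage RNA at the level of C1qa there would give 1.69. With all deposited cells, the log2(CPM + 10) difference of macrophages over tumour cells was 1.54 in place of 2.22 in E. In EM3 it was 0.53 in place of 0.54. The sizes of the ratios to tumour cells of E thus depend on the doublet limit. They are given only with doublets left out, and the direction in EM3 is not settled. In tumour cells with no UMI of Ptprc, Lyz2 or the C1q genes, E had 3.19 CPM (0.658 to 9.32, 3 UMIs) and EM3 7.69 (2.82 to 16.7, 6 UMIs), with overlapping intervals, while EM1 had 14.3 (12.6 to 16.2) and M 140.6 (134.7 to 146.7). With 1 tumour per group the difference between the classes was not tested.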

How the results depend on the processing

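With 1 tumour per group, intervals cover counting error only. Barcode sets cannot be told apart from tumours, except between E and EM3 and between EM1 and EM2, which share a set. Members at least 2-fold apart numbered 2 in place of 1 for M over E in the Total libraries. For EM1 over EM2 they numbered 1 in place of 0 in the Total libraries and with a pseudocount of 1 CPM. The counts for the other pairs of tumours stayed within 1.5 times under these settings, and all 6 did under TMM scaling (2 in place of 3 for EM1 over E, where C1qc lost its call), with all deposited cells, with cells of at least 1000 UMIs and with each cell weighted alike. Without the replicate block for the tumour, edgeR called 1450 genes between Total and CD45 macrophages in place of 6606, none of the 8 members passed, and the log2 ratio of Fcrls was 0.01 in place of −0.07. Leaving out 1 tumour at a time, the called genes ranged from 5248 to 6953, and the log2 ratio of Fcrls from −0.15 without EM3 to 0.01 without Clone E; the cause was not tested. DESeq2 called 6421 genes and also called C1qc (adjusted p = 0.035). With no filter on low counts 8119 genes were called, and C1qc (0.0192) and Mrc1 (0.0487) passed the edgeR test. The mean Gpnmb difference of macrophages over tumour cells stayed positive, from 0.22 without Clone E to 1.09 with a pseudocount of 1 CPM. Within Clone E that difference was 1.54 in place of 2.22 with all deposited cells. With 1 tumour left out the smallest possible p is 0.0625, so those tests could not pass; the alternatives with 6 tumours gave exact permutation p from 0.2812 to 0.5.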
